A study of Mus musculus with 2 samples.

Results

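The late-numbered miRNA genes Mir6896 to Mir7118 were examined in microRNA-seq libraries from mouse adrenal gland, the paired organ whose cortex makes steroid hormones and whose medulla secretes catecholamines. Members were all rows of the 2 count tables whose GENCODE M21 name was Mir followed by a number from 6896 to 7118, with or without a letter or copy suffix. There were 205 such genes among 2202, or 9.31% of the table, on 20 chromosomes. The rule used the name and no measured value, though it was set with earlier results of these data known. The samples formed 1 group of 2 libraries. Both came from B6CASTF1/J females, an F1 hybrid strain, aged 36 days, with no treatment, genotype or second tissue to compare. The labels number the animals separately but give 1 donor identifier for both, so the spread between the libraries may not be a spread between animals. Replicate 1 had 5397603 reads on the sense strand of miRNA genes and replicate 2 had 3029977, a depth ratio of 1.78.

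A miRNA is a small RNA that guides Argonaute proteins to messages, mostly through pairing of its seed, bases 2 to 8. Most miRNA hairpins are cut out of a longer transcript by Drosha and then trimmed to the mature RNA by Dicer. A mirtron instead takes its hairpin from an intron: splicing sets the hairpin's ends, and Drosha is not needed. In a conventional mirtron the whole short intron is the hairpin. In a tailed mirtron splicing sets only 1 end, and the tail on the other side has to be trimmed away. Introns begin with GU and end with AG, after a stretch rich in pyrimidines. Where splicing sets the 3′ end of the hairpin, its 3′ arm therefore carries the splice acceptor.

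The annotated positions placed nearly all members at an intron end, but few of them were short introns in full. The hairpin was the whole intron, with both ends within 5 bases of the intron ends, in 15 of 205 members. In 175 members only its 3′ end lay there, which makes them 5′-tailed mirtrons by position, and in 4 members only its 5′ end did. The other 11 were an intronic hairpin away from the ends (Mir7036b), 8 hairpins that overlapped an exon of the host, and the copies Mir7094-1 and Mir7094-2. These copies lay in none of the same-strand genes considered, and immunoglobulin gene segments were not among those considered. The hairpin ended on the last base of the intron in 189 of the 195 members with an assigned intron. The introns ran from 66 to 36269 bases with a median of 479, and 66 of the 195 were under 200 bases. The label of a block rich in short-intron mirtrons therefore held for the splice-site ends. For intron length it depends on what counts as short, and no comparison with other introns was made. Host genes were protein-coding for 203 members, and 198 host genes carried them.

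Hairpin sequences show these ends. They are RefSeq hairpins on GRCm38.p6, where the 183 members with a hairpin in that table had the same coordinates as in GENCODE. Capitals mark the last bases of the intron, AG, and, where the hairpin is a whole intron, its first bases, GU. Mir7019 is the member with the highest mean level, Mir6968 the one with the most counts and Mir7018 the whole-intron member with the most counts. They lie at chr4:138316132-138316200 (minus strand), chr17:26935472-26935539 (plus strand) and chr4:137538286-137538370 (plus strand).
Mir7019: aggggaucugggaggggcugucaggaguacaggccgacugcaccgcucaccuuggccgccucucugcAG
Mir6968: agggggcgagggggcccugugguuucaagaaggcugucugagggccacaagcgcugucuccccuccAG
Mir7018: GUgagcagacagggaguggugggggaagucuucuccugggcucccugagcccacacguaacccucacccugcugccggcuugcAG

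The same ends were found across the block. Hairpins ending in AG, read on the transcribed strand, made up 191 of 205 members (93.2%), against 144 of the 1997 other miRNA genes (7.21%) and 15.2% of all genes. All 15 whole-intron hairpins ended in AG, and 13 of them began with GU. Over the last 22 bases the median pyrimidine content was 68.2% in members and 50% in other genes, and over the first 22 bases the median G content was 45.5% and 27.3%. Members were short and GC-rich, with a median hairpin length of 66 bases and a median GC content of 57.4%. The medians over all other genes were 93 bases and 50%. Among RefSeq's 3p arms of members, 134 of 181 ended on the hairpin's last base and 140 of 181 ended in AG.

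Most members were read in at least 1 of the libraries, fewer in both, and almost none was read often. At least 1 sense count in either library was found for 145 of 205 members (70.7%), against 624 of 1997 other genes (31.2%). The latter include 1039 genes with other kinds of names, of which 75 (7.22%) were read, and the 958 others with a Mir number were read in 549 cases (57.3%). Replicate 1, the deeper library, read 131 members (63.9%), replicate 2 read 88 (42.9%), and 74 (36.1%) had a count in both. With replicate 1 thinned to the depth of replicate 2, 135 members were still read in at least 1 library. For the 958 other genes with a Mir number the share read in both libraries was 47.2%. The detection minimum of 10 counts in both libraries was reached by 1 member (0.488%), Mir7019, against 338 of the other genes (16.9%). The members were 18.9% of the 769 genes read at all. Over both libraries 60 members had no count, 31 had 1 count, 94 had 2 to 9 and 20 had at least 10. The highest had 27 counts, and the median over the 145 read members was 3 counts. A count of 0 allows a level of up to 0.556 CPM (counts for each 1000000 sense miRNA counts) in the deeper library, replicate 1, and of up to 0.990 CPM in the other. They are the value of 3 counts, and the Wilson intervals used for single members end higher for a 0, at 0.712 and 1.27 CPM. These limits and intervals account for counting error and nothing else. Fewer cells of a type and less RNA per cell cannot be told apart in a whole gland.

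**Figure D1:**
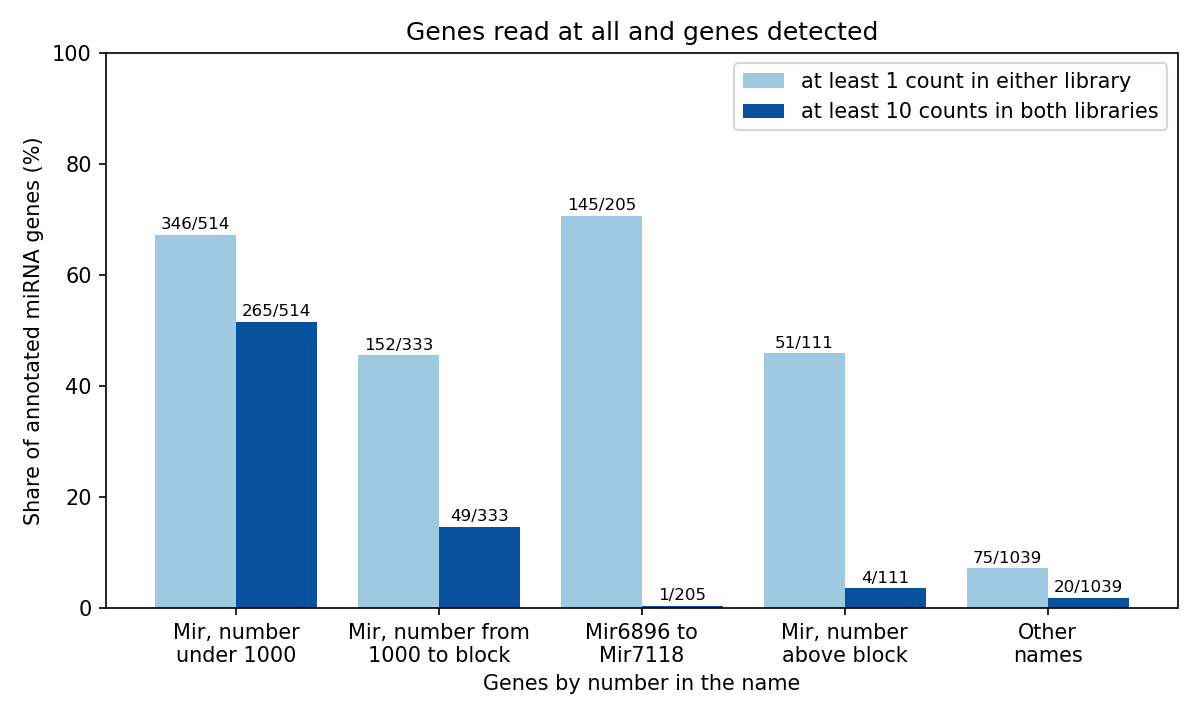
Share of annotated miRNA genes with at least 1 count in either library (light bars) and with at least 10 counts in both (dark bars), by the number in the gene name. The share read at all is 70.7% for Mir6896 to Mir7118 and 67.3% for numbers under 1000, the shares detected are 0.488% and 51.6%, and the shares read in both libraries, not drawn, are 36.1% and 60.5%.

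Set beside genes of other numbers, the block had a high share of genes read in at least 1 library, and low counts. Its share read in both libraries, 36.1%, was under the 60.5% of the genes numbered under 1000 and near the 33.6% of those from 1000 up to the block. Of the 514 genes numbered under 1000, 346 (67.3%) were read and 265 (51.6%) were detected, with a median of 589.5 counts among those read. Of the 333 genes numbered from 1000 up to the block, 152 (45.6%) were read and 49 (14.7%) detected. Of the 111 genes numbered above it, 51 (45.9%) were read and 4 (3.6%) detected. These shares are descriptions of the table, with no test. No member overlapped another miRNA gene, the antisense count over all members was 1 in each library, and the unstranded count was the sum of the sense and antisense counts in all 205. Only 4 members share a stretch of 20 bases with another miRNA hairpin (Mir6970, Mir7065, Mir7094-1 and Mir7094-2), so reads left out for mapping to several miRNA loci concern few of them. Reads with a second match outside the miRNA genes are also left out, and their number for each gene is not known.

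Together the members had 575 counts in replicate 1 and 183 in replicate 2. Their summed level in the first was thus 107 CPM, with a 95% Wilson interval from 98.2 to 116. In the second it was 60.4 CPM, with an interval from 52.3 to 69.8, and the mean was 83.5 ± 32.6 CPM (SD, n = 2). The summed level of replicate 1 was 1.76-fold that of replicate 2, and 1.43-fold with TMM scaling. The intervals do not overlap, so counting error alone does not cover the difference, but 2 libraries give no test of it. The other 270 genes with 1 to 27 counts over both libraries were 1.19-fold higher in replicate 1 by CPM. Their median hairpin GC content was 52.5%, below that of the block. Reads mapped to a single place but to no miRNA gene took 6.88% of all reads in replicate 1 and 6.86% in replicate 2. Unmapped reads and reads mapped to several places are not part of this share. Of the markers for other tissues, the hepatocyte gene Mir122 had 1503 CPM in replicate 1 and 146 in replicate 2, and the 4 kidney and gut genes summed to 136 and 57.4 CPM, of which Mir215 and Mir194-1 were at 0 in replicate 2. The endothelial gene Mir126a was also the higher in replicate 1, at 133209 and 69285 CPM. Of the epidermal pair Mir203 was the lower in replicate 1, at 822 and 3691 CPM, while Mir205 had 7 and 1 counts. The 4 blood genes summed to 1602 and 1519 CPM but did not move together. Mir451a (722 and 389 CPM) and Mir144 (436 and 169 CPM) were higher in replicate 1, and Mir142 (356 and 772 CPM) and Mir223 (88.4 and 189 CPM) were lower there. The sum over the 8 muscle genes as counted, 483 and 515 CPM, was nearly all Mir206 (474 and 494 CPM), and Mir208b had 6.67 and 19.8 CPM. Of the numbered copies, Mir1a-2 had 11 and 2 counts, Mir133a-1 had 0 and 1, and Mir1a-1 and Mir133a-2 had none. The 5 neuroendocrine markers of the labelled tissue were read in both libraries, at 32103 and 25898 CPM, and did not move together. Mir375 made up most of the sum, at 28921.5 and 22245.7 CPM. Mir7-1 (146 and 115 CPM) and Mir7-2 (31.7 and 24.8 CPM) were also higher in replicate 1. Mir7b (2569 and 3010 CPM) and Mir137 (435 and 503 CPM) were lower there. The 3 neuronal genes Mir124a-1, Mir124a-2 and Mir124a-3 were at 0. A low count or a 0 of a gene with numbered copies does not show absence, since reads mapped to several places are in no count. This holds for the Mir124a, Mir1a, Mir133a and Mir194 copies. The part of GC content or of other tissues in the difference was not tested.

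The members with the most reads lie in host genes of unlike function. Mir7019 lies in Pink1, a kinase of mitochondrial quality control. Replicate 1 gave it 14 counts and replicate 2 gave 10, which is 2.59 CPM (1.55 to 4.35) and 3.30 CPM (1.79 to 6.08), a mean of 2.95 ± 0.50 CPM. It had the highest mean CPM of the block, and its levels in the libraries overlapped within counting error. Mir6968 lies in Phf1, a partner of the Polycomb complex PRC2. It had 23 and 4 counts, or 4.26 and 1.32 CPM, and its mean of 2.79 ± 2.08 CPM could not be ranked against that of Mir7019. Mir6990 (chr19:6914196-6914286, minus strand) lies in Esrra, a nuclear receptor for genes of mitochondrial metabolism. It had 9 and 11 counts, or 1.67 and 3.63 CPM, and so was high in replicate 2 where Mir6968 was low.

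Below these the levels ran together. Mir6897 (chr1:36144252-36144313, minus strand) in Uggt1, a folding sensor of the endoplasmic reticulum, had 21 and 3 counts (2.44 ± 2.05 CPM). Mir7013 in Pi4kb, a Golgi lipid kinase, and Mir7083 in Dock6, an exchange factor for small GTPases, each had 17 and 5 counts (2.40 ± 1.06 CPM). Mir6971 in Skiv2l, the helicase of the SKI complex for RNA decay, had 11 and 7 counts (2.17 ± 0.19 CPM). All of these 7 highest members by mean CPM had their hairpin at the 3′ end of an intron. The SDs of neighbours in this order overlap, so it is not an order of abundance.

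Another 13 members had 10 to 18 counts over both libraries. Mir7018 in Hspg2 (perlecan, a basement membrane proteoglycan) and Mir7069 in Farsa (a subunit of phenylalanyl-tRNA synthetase) had 17 counts in replicate 1 and 1 in replicate 2. Mir7051 in Etfb (an electron carrier of fatty acid oxidation) had 9 and 6. Mir6954 in Mroh1 had 13 and 1, Mir6933 in Pgs1 (an enzyme of cardiolipin synthesis) had 12 and 1, and Mir6912 in Scamp4 had 11 and 1. Replicate 1 was the higher library in all but Mir7051 of these by CPM. Mir6956 in Triobp (an actin-binding protein) and Mir7021 in Prdm2 had 10 and 2 counts each. Mir7049 in Pak4 had 10 and 1, and Mir7033 in Pom121 (a nuclear pore protein) had 11 and 0. Mir6944 in Dbn1 (drebrin, which binds actin) had 7 and 4, Mir6994 in Patl1 (a factor of mRNA decapping) had 7 and 3, and Mir6934 in Tbc1d16 had 4 and 7. The 20 members with at least 10 counts held 42.9% of the block's counts. Mir6953 in Grina (4 and 5 counts) and Mir6988 in Syvn1 (5 and 4) had fewer counts but were among the 20 highest by mean CPM.

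**Figure D2:**
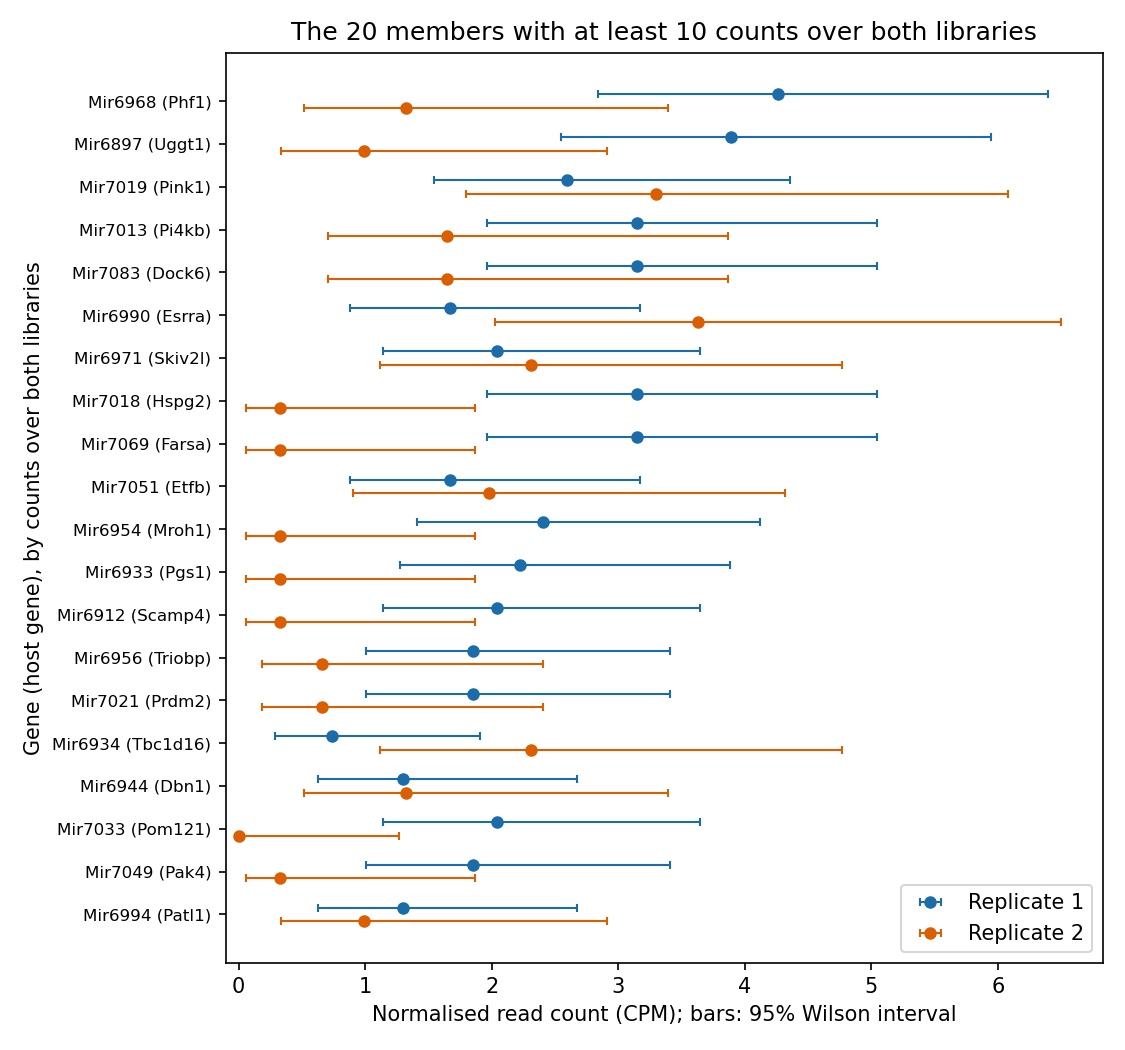
Normalised read count (CPM, x axis) of the 20 members with at least 10 counts over both libraries, with the host gene in brackets. Points are single libraries and bars their 95% Wilson intervals; the intervals of the libraries overlap for all 20 except Mir7018 and Mir7069, and all points lie under 5 CPM.

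The mature arms of the highest members show how the seeds differ. Each is given 5′ to 3′ from RefSeq (GRCm38.p6) with its seed in capitals. The tables count whole hairpin genes, so which arm the reads came from, and whether they were mature arms or other pieces of the intron, is not given by these counts. The arms shown are those of Mir7019, Mir6968, Mir6990 and Mir6897.
miR-7019-5p: aUCUGGGAggggcugucaggagu
miR-7019-3p: uCACCUUGgccgccucucugcag
miR-6968-5p: aGGGGGCGagggggcccugugg
miR-6968-3p: aCAAGCGCugucuccccuccag
miR-6990-5p: cCCAGGGUgagucagggcucu
miR-6990-3p: aGCCCUGCcucuuccuggcag
miR-6897-5p: uGGGGGCAgugucacacgcuguu
miR-6897-3p: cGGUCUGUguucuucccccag

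Seeds were rarely shared within the block. RefSeq gave mature sequences for 189 members, with 361 arm names and 332 different seeds. Only 25 seeds were shared by 2 or more arm names, 54 arms in all, and 4 seeds by 3. One of the largest groups joined the 3p arms of Mir7018, Mir7068 and Mir7023, printed here because both whole-intron members in it were read.
miR-7018-3p: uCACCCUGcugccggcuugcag
miR-7068-3p: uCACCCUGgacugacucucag
miR-7023-3p: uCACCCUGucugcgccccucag
Mir7018 had 17 and 1 counts and Mir7068 in Cherp had 5 and 3, while Mir7023 had none. The 3 genes with this seed summed to 22 counts in replicate 1 and 4 in replicate 2. The 5p seed of Mir7019 was shared with miR-6907-5p of Mir6907 (4 and 1 counts), and that of Mir6990 with miR-7032-5p of Mir7032 (1 and 1 counts). The hosts in each pair lie on different chromosomes.

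The share of members read was close in the whole-intron and 5′-tailed classes. Of the 15 whole-intron members 11 (73.3%) were read, of the 175 5′-tailed members 123 (70.3%), of the 4 3′-tailed members 3, and of the 8 that overlapped an exon 7. The copies Mir7094-1 and Mir7094-2 had no count. The whole-intron members had at most 18 counts, in Mir7018, followed by 11 in Mir6944, 8 in Mir7068, and 7 in Mir7070 of Fbxw9 (2 and 5 counts). The 3′-tailed members were Mir6936 in Sirt7 (5 and 0 counts), Mir6927 in Mllt6 (3 and 1), Mir6977 in Ptprs (1 and 0) and Mir6973b in Gfra4, which had none. Members in introns under 200 bases were read in 52 of 66 cases (78.8%) and those in longer introns in 86 of 129 (66.7%). The median intron length was 446.5 bases for read and 580 for unread members, with nearly equal medians of hairpin length (66 and 65.5 bases) and GC content (57.5% and 56.8%). These are descriptions, with no test. Host gene expression was not analysed here.

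**Figure D3:**
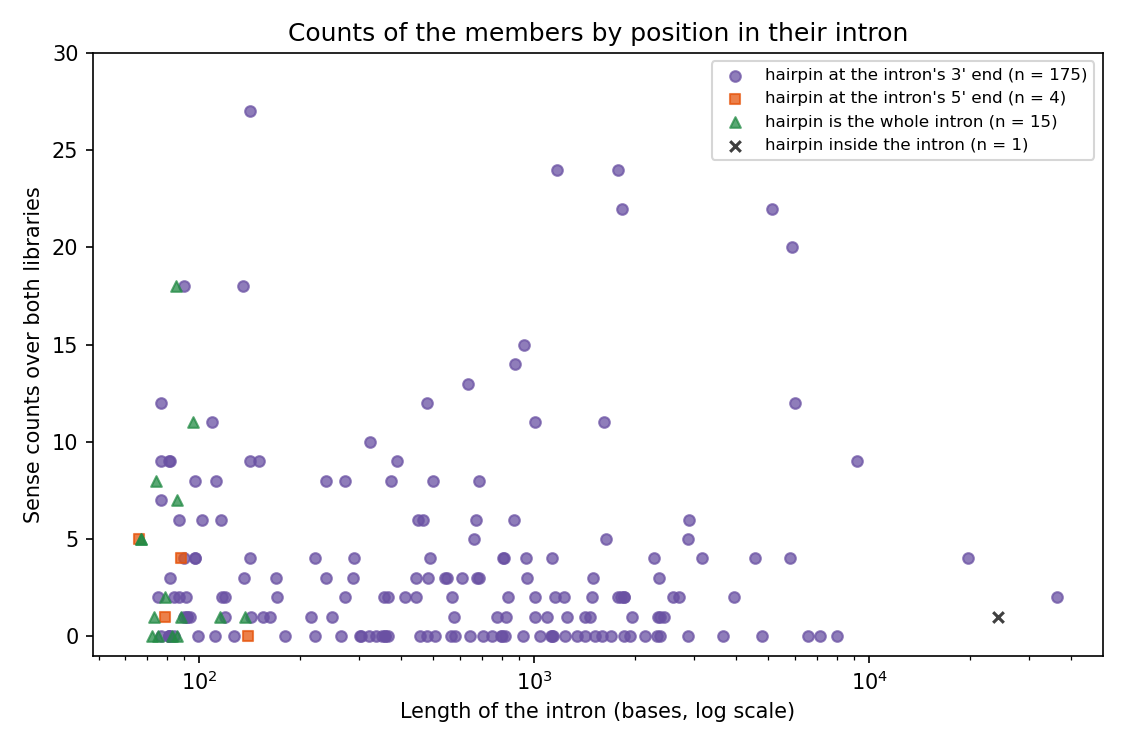
Sense counts over both libraries (y axis) against intron length in bases (x axis, log scale) for the 195 members with an assigned intron, marked by where the hairpin lies. Whole-intron hairpins (triangles) sit at the short end with at most 18 counts, and the members with 20 to 27 counts are all 5′-tailed, in introns from 142 to 5867 bases.

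Members in 1 host gene were read together in some cases. Srebf1, a transcription factor of lipid synthesis, holds Mir6921 (6 and 2 counts) and Mir6922 (7 and 1). Skiv2l holds Mir6971 (11 and 7) and Mir6970 (4 and 1), and Ankrd52 holds Mir6915 (6 and 3) and Mir6914 (2 and 1). In Arap3 the pair was Mir6981 (0 and 1) and Mir6980, which had none, and both members in Cmip, Mir7077 and Mir7078, had none. With 5 such hosts this is a list of values and no pattern was tested.

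Some whole-intron hairpins outside the block were read at much higher levels in the same libraries. Outside the block 7 hairpins were whole introns, and all 7 were read and 4 detected. They were led by Mir1981 in Marc2 with 1363 and 469 counts (204 ± 69.1 CPM), Mir3102 in Arhgef17 with 1027 and 286 (142 ± 67.8 CPM) and Mir877 in Abcf1 with 523 and 104 (65.6 ± 44.2 CPM). Mir3547 in Baiap3 had 42 and 19 counts. The lower members of that group came close to the block, with 14 and 2 counts for Mir1224, 8 and 5 for Mir1982 and 3 and 1 for Gm24589. Each of Mir1981 and Mir3102 thus had more counts in each library than the 205 members together, while Mir877 had fewer. Of 27 5′-tailed hairpins outside the block 18 (66.7%) were read and 3 detected. Mir382 in the noncoding gene Mirg had 10334 and 6283 counts, and Mir3076 in Tkt (44 and 29) and Mir3064 in Ddx5 (43 and 15) were the others detected. The class rests on position alone, and whether splicing forms these hairpins was not tested. In a list of 10 lower-numbered genes drawn up as mirtrons 8 were detected, against 15.4% of all genes. The list was set with earlier results of these data known. Of the 8, Mir702, Mir5132 and Mir1839 were not mirtrons by the position rule used here.

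The libraries were also compared gene by gene, which compares these libraries and not conditions. Among the 434 miRNA genes whose counts summed to at least 10, an exact two-sided binomial test with TMM scaling and Benjamini-Hochberg adjustment called 58.5%, of which replicate 1 was the higher for 30.2% of the genes tested and replicate 2 for 28.3%. Among the 20 members tested 4 were called (20%), 3 with the higher level in replicate 1 and 1 with the lower. The members have few counts, and of the other 60 tested genes with at most 27 counts 8 (13.3%) were called. Log2 ratios, with replicate 1 in the numerator, had a median of 0.94 for the 20 members and 0.06 for all genes tested. For the other 60 tested genes with at most 27 counts it was 0.09. Of the 20 members, 14 had at least 10 counts in replicate 1 alone and 1 in replicate 2 alone. With a minimum of 1 count the median was 0.58 for the 145 read members and 0.23 for all genes, and with a minimum of 20 it was 0.58 for 6 members and 0.10 for all genes.

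Mir7018 and Mir7069 each had a TMM-scaled level 7.74-fold higher in replicate 1, with an exact 95% Clopper-Pearson counting interval from 1.21-fold to 324-fold, since replicate 2 had 1 count (adjusted p = 0.0340 in the exact binomial test). Mir7033, at 0 in replicate 2, was at least 1.67-fold higher in replicate 1 with 3 counts, the floor per library, in place of that 0, and its exact counting interval begins lower, at 1.14-fold (adjusted p = 0.0381 in the exact binomial test). Mir6990 was higher in replicate 2 by a log2 ratio of -1.41 (adjusted p = 0.0498 in the exact binomial test). The others were not called, among them Mir7019 with a log2 ratio of -0.67 and an adjusted p of 0.361 in that exact test. With total counts in place of TMM, which shifts all log2 ratios by 0.30, 6 of the 20 members were called, against 62.7% of all genes tested. All 6 were higher in replicate 1, and Mir6990 was not called (adjusted p = 0.143, exact binomial test). With DESeq2 size factors 4 of the 20 were called, 2 in each direction, against 59% of all genes tested. Mir7033 was not called with them (adjusted p = 0.0676, exact binomial test). With the spread between libraries taken from edgeR's common dispersion as the error, none of the 20 was called (edgeR's exact test, lowest adjusted p = 0.808), and 1 had an unadjusted p under 0.05. None of the 434 genes tested was called this way either. That dispersion came from the same 2 libraries, so the difference under test is part of the error. No conclusion on the members is drawn from it.

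**Figure D4:**
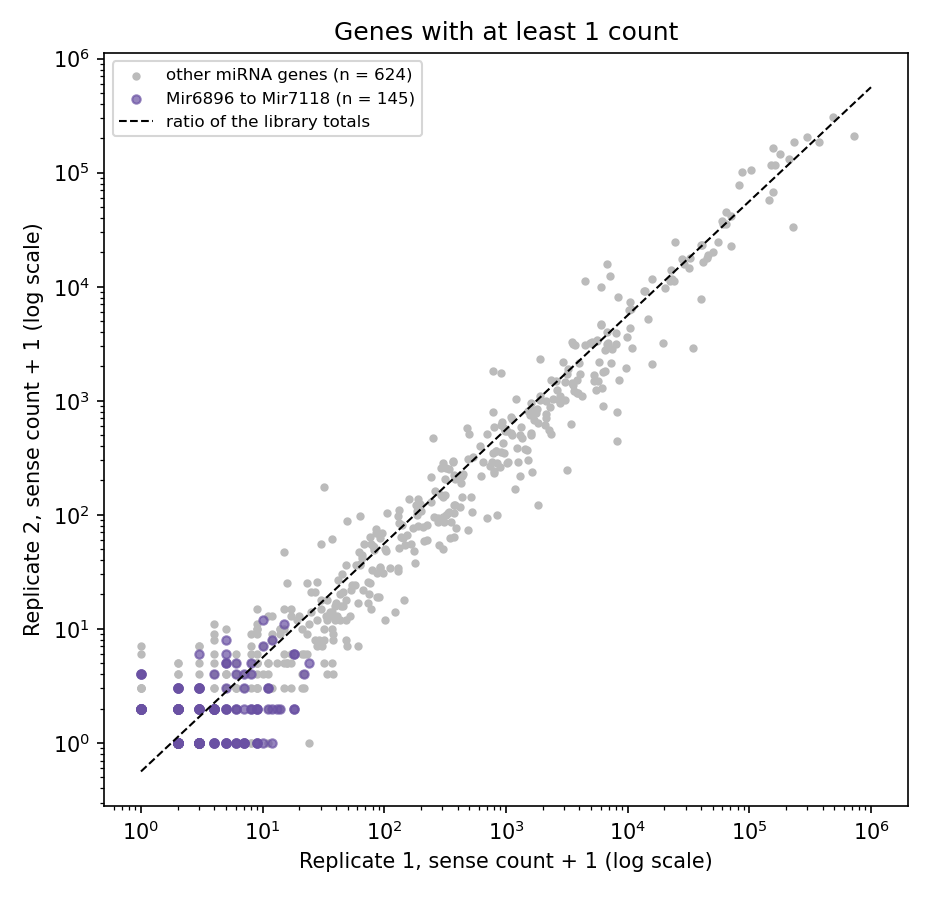
Sense count + 1 in replicate 1 (x axis) and replicate 2 (y axis), both on log scales, for genes with at least 1 count, with the 145 read members in purple and the 624 other genes in grey. The dashed line is the ratio of the library totals; the members lie in the lowest corner, at no more than 23 counts in replicate 1 and 11 in replicate 2.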

How the data were processed

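For each library the authors deposited raw counts of reads, a row for each miRNA gene and 3 columns with no header, on mm10 with GENCODE M21, per the notes deposited with them. The aligner, the counter and any trimming were not given in the sources used here. The columns were read as counts without strand, sense and antisense. Each adds up to the same total with the 4 summary entries, which alone does not tell the columns apart. Those entries, kept out of library sizes, took 61.4% of reads in replicate 1 and 59.8% in replicate 2. Names, positions and introns came from GENCODE M21. RefSeq sequences on chromosome 18 were left out. Reads mapped to several places are in no count. CPM used the sense total.

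Library sizes were scaled by TMM (edgeR 4.0.16, R 4.3.3). Genes whose counts summed to at least 10 were tested by an exact binomial test in scipy 1.17.1, at 0.05 after Benjamini-Hochberg adjustment in statsmodels 0.14.6 over all genes tested, with a prior of 0.5 counts for log2 ratios. DESeq2 1.42.0 size factors were an alternative. The test was checked on simulated data. Members, lists and the rule for named genes (at least 10 counts over both libraries, or the 20 highest by mean CPM) were chosen with earlier results of these data known. Other genes were named after their values were seen.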

Additional observations from a re-analysis of the deposited data

How the results depend on the processing

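The number of members read, 145, was 74 when a count in both libraries was required and ran from 88 to 131 when 1 library was left out, 88 without replicate 1. The number detected, 1, rests on the minimum. It was 6 with at least 5 counts in both libraries, 20 with at least 10 over both, 8 with at least 1 CPM in both and 0 with replicate 1 thinned to the depth of replicate 2, and ran from 2 without replicate 1 to 15 without replicate 2. The summed level was 32.7 for each 1000000 of all reads, a larger denominator, and 60.4 to 107 CPM with 1 library left out. The number of members that differed between the libraries, 4 of 20, was 1 of 6 tested with a minimum of 20 counts (67.1% of all genes tested). It was 2 of 145 with a minimum of 1 count (32.2% of all) and 2 of 9 with replicate 1 thinned (61.6% of all). With the common dispersion, estimated from the same 2 libraries, it was 0, as it was for all 434 genes (edgeR's exact test, with 1 of the 20 members and 24 of the 434 genes at an unadjusted p under 0.05). Without strand 3 of 20 members were called, against 58.4% of all genes tested. The number of members at intron ends, 194, was 193 with 2 bases of tolerance and 201 with 10. No paired analysis was possible because there was 1 group. At these depths a single count stood for 0.185 CPM in the deeper library and 0.330 CPM in the other, so no order among the members can be read.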
